A study of Mus musculus with 23 samples.

Results

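Endothelial cells and tumour cells that had been sorted from the same kind of nintedanib-treated breast tumour were compared after 21 days of treatment. The comparison uses 10 of the 23 arrays of the series, 5 of endothelial cells and 5 of tumour cells, chosen by their sample titles. Tumours were grown from Py2T, a single murine breast cancer cell line, in the mammary fat pad of female FVB/N mice. Both cell types came from mice given nintedanib, which inhibits the kinases of VEGF, PDGF and FGF receptors, for 21 days at 50 mg/kg body weight. The difference described here is therefore one between cell types within treated tumours and does not measure an effect of the drug. A drug response that differed between the cell types would be part of it and cannot be told apart by these 10 arrays. The remaining 13 arrays are 3 endothelial and 3 tumour arrays from untreated tumours of matching size, and 3 endothelial and 4 tumour arrays after 7 days of nintedanib. They entered the shared estimate of spread and the comparison of the cell type difference between durations. The labels name each array a biological replicate, but the antibodies of the sort, the age of the mice and the number of mice behind an array are not stated in them, so p-values measure the spread between these arrays.

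Endothelial cells line blood vessels and read growth signals that other cells secrete. VEGF receptors, the angiopoietin receptor Tek, the apelin receptor Aplnr and Notch receptors act on them to set vessel growth, maturation and the choice between leading tip cells and trailing stalk cells. Tumour cells of epithelial origin are a source of many of these ligands, and those that have gone through an epithelial-mesenchymal transition (EMT) also make matrix and mesenchymal proteins.

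All levels are log2 signals per gene, on a scale on which a difference of 1 is a 2-fold change, and they are compared for 1 gene between arrays and not between genes. The median of all values was 4.85 in endothelial arrays and 4.77 in tumour arrays, and 10% of values lay below 3.21 and 3.11. Values of the 5 arrays of a cell type are listed in the order of replicate 1 to 5, which has no meaning across cell types. Differences are endothelial minus tumour cells with the standard error (SE) of limma's fit, and a gene was called when its p, adjusted over all 19938 genes by the Benjamini-Hochberg method, was under 0.05. The fit shares 1 spread per gene over all groups, although the median standard deviation (SD) was 0.228 in endothelial and 0.140 in tumour arrays.

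The markers of each label were examined first. The 28 measured endothelial markers had mean levels of 10.09, 10.05, 9.85, 9.76 and 10.09 in the endothelial arrays and 4.27, 4.12, 4.16, 4.28 and 4.21 in the tumour arrays. No tumour array came near an endothelial one on this list. A second measure used 100 genes that were highest in tumour cells relative to endothelial cells in the untreated arrays. Their mean level was 5.27, 6.59, 7.36, 6.86 and 6.03 in the endothelial arrays and 8.87, 8.90, 8.84, 8.61 and 9.02 in the tumour arrays. Endothelial array 1 was lowest and array 3 highest in these tumour genes, and all 5 stayed below every tumour array. Transcripts higher in tumour cells thus varied among the endothelial arrays far more than endothelial transcripts varied among the tumour arrays, whose 100 counterpart genes had means of 4.34, 4.27, 4.26, 4.26 and 4.32. Some genes called lower in endothelial cells below, such as Angpt1 and Ogn, were likewise lowest in endothelial array 1 and highest in array 3. Others, such as Aspa and Krt8, had another order. The part of the tumour gene means in those results was not tested. In sorted bulk samples, fewer cells of a type and less RNA per cell cannot be told apart.

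Markers of other cells also differed among the endothelial arrays. The 19 macrophage and monocyte markers had mean levels of 4.89, 5.27, 7.52, 6.75 and 5.97 in endothelial arrays and 4.51, 4.96, 4.95, 4.85 and 4.81 in tumour arrays. Of the 19, 9 were called higher in endothelial cells, beside 15.7% of all genes. Leaving out 1 array, this count ran from 3 without endothelial array 3 to 12 without endothelial array 1, and was 4 without tumour array 1. Without endothelial arrays 3 and 4, which were highest in these markers, 0 of the 19 were called (2 higher at an unadjusted p under 0.05) and their median difference fell from 1.39 to 0.37. Csf1r, the receptor of the macrophage growth factor, was at 4.54, 5.62, 7.53, 8.04 and 6.13 in endothelial cells. C1qc, a complement subunit made by macrophages, was at 6.36, 7.12, 9.93, 9.47 and 8.86. Endothelial arrays 3 and 4 were high for both genes, and without them neither was called (differences of 0.90 for Csf1r and 1.46 for C1qc). Of 15 pericyte and smooth muscle markers 9 were called higher and 1 lower, with list means of 5.27 to 5.48 in endothelial and 4.31 to 4.53 in tumour arrays. The 1 lower member was the pericyte receptor gene Pdgfrb, with a difference of -1.71. Rgs5, a pericyte marker, was at 7.26, 4.96, 6.85, 7.08 and 6.96 in endothelial cells and at 3.92, 3.99, 3.86, 3.77 and 3.90 in tumour cells. The smooth muscle actin gene Acta2 was at 8.69, 6.55, 6.44, 7.50 and 6.85 against 4.58, 4.66, 4.66, 4.67 and 4.89. Abcc9, a potassium channel subunit that pericytes and some endothelial cells express, was at 8.95, 9.60, 9.16, 8.89 and 9.43 against 4.86, 5.07, 4.41, 4.59 and 4.76. Among the endothelial arrays, array 2 was lowest for Rgs5 and highest for Abcc9. The T, B and NK cell markers stayed low, with list means of 3.66 to 3.86 in endothelial and 3.62 to 3.76 in tumour arrays, and the means of 10 neutrophil markers were 4.05 to 4.56 and 3.77 to 4.15. Of 6 lymphatic endothelial markers 3 were called higher and 0 lower, among them the VEGF-C receptor gene Flt4 with a difference of 5.25. The lymphatic factor Prox1, also called higher, had low values in both cell types, 3.94, 3.75, 3.74, 3.68 and 4.16 in endothelial and 3.58, 3.35, 3.39, 3.21 and 3.34 in tumour cells. Every endothelial array was above every tumour array for Prox1. The means of 12 fibroblast markers were 5.57, 6.12, 6.48, 5.84 and 5.66 in endothelial and 5.86, 6.06, 5.93, 5.96 and 6.03 in tumour arrays. The part of these other cell types in the results was not tested.

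**Figure D1:**
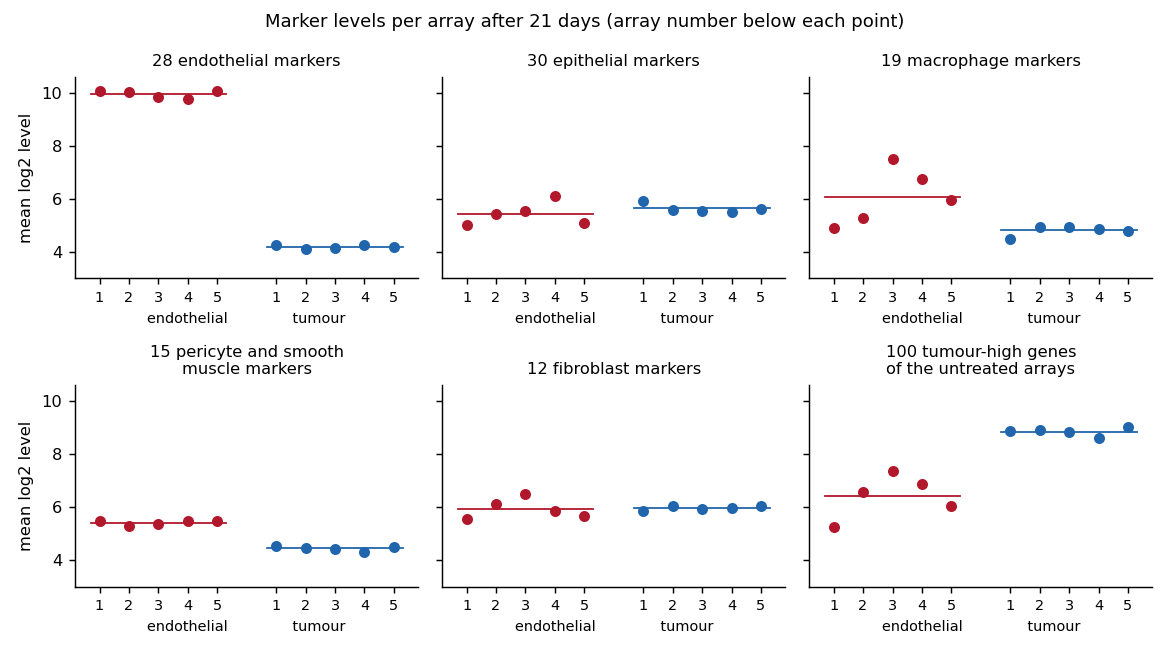
Mean log2 level (vertical axis) of 5 marker lists and of 100 tumour-high genes in each endothelial (red) and tumour (blue) array after 21 days, numbered by replicate, with a line at the group mean. The endothelial markers separate the cell types, while the macrophage markers and the tumour-high genes spread over the endothelial arrays.

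The tumour arrays did not carry a plain epithelial profile. Epcam, an adhesion protein of epithelial cells, was at 4.34, 4.71, 4.66, 5.76 and 4.08 in endothelial cells and 5.26, 4.41, 4.20, 4.07 and 4.40 in tumour cells, and the difference of 0.24 ± 0.26 was not called. Cdh1, the epithelial cadherin, was at 5.71, 6.54, 6.42, 6.33 and 5.22 in endothelial cells and 7.16, 7.21, 7.82, 7.60 and 8.18 in tumour cells. All tumour arrays were above all endothelial arrays for Cdh1, with a difference of -1.55 ± 0.30 (adjusted p = 0.000462). Among the 30 epithelial genes 8 were called lower and 5 higher in endothelial cells, and their median difference was 0.11, close to the median of 0.06 over all genes. Their list means were 5.02, 5.44, 5.55, 6.12 and 5.10 in endothelial and 5.92, 5.59, 5.57, 5.50 and 5.64 in tumour arrays. Endothelial array 4 was thus above every tumour array on this list. The count of higher genes was 8 without tumour array 1 and 3 without endothelial array 2 or 4 or without tumour array 2, 3, 4 or 5. The keratins of simple epithelia, Krt8 and Krt18, were both lower in endothelial cells. Krt8 was at 7.32, 10.09, 10.30, 11.02 and 8.66 against 11.31, 11.40, 11.64, 11.65 and 11.44, a difference of -2.01 ± 0.48 (adjusted p = 0.00336). Endothelial array 1 was lowest for Krt8 and array 4 highest. Perp, a desmosome-associated protein, differed by -2.18 ± 0.49, Krt14, a basal keratin, by -1.70 ± 0.44 and the plakophilin Pkp1 by -1.52 ± 0.30. Jup, a plakoglobin that both adherens junctions and desmosomes use, was higher in endothelial cells by 0.87 ± 0.18, and Spint2, a protease inhibitor, by 1.32 ± 0.31. The claudins Cldn3 and Cldn4 were not called, with differences of 0.13 ± 0.24 and 0.29 ± 0.29.

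After 21 days, 6378 of 19938 genes (32%) were called between the cell types. Of these, 3125 (15.7% of all genes) were higher in endothelial cells and 3253 (16.3%) were lower. A change of at least 2-fold was reached by 1027 of the higher and 1252 of the lower genes. The differences were not alike in size on both sides. A difference of at least 16-fold was found for 139 genes higher in endothelial cells and for 0 genes lower in them. The 0 depended on the arrays used. Without endothelial arrays 3 and 4, some genes were lower in endothelial cells by more than 16-fold, a log2 difference of 4. Among them were Aspa (-4.78), Ogn (-4.23) and Angpt1 (-4.06). Genes lower by at least 16-fold numbered 5 in untreated tumours and 7 at 7 days, beside 146 and 141 higher. The 5 arrays of one cell type lay entirely above the 5 of the other for 4687 genes (23.5%). The genes called higher made up 49% of the calls. That share depended on the scaling, with 1922 genes or 33.7% of the calls when each array was centred on its median. It was 35.3% of the calls, or 1631 genes, when genes under the 50th percentile of mean level were left out.

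**Figure D2:**
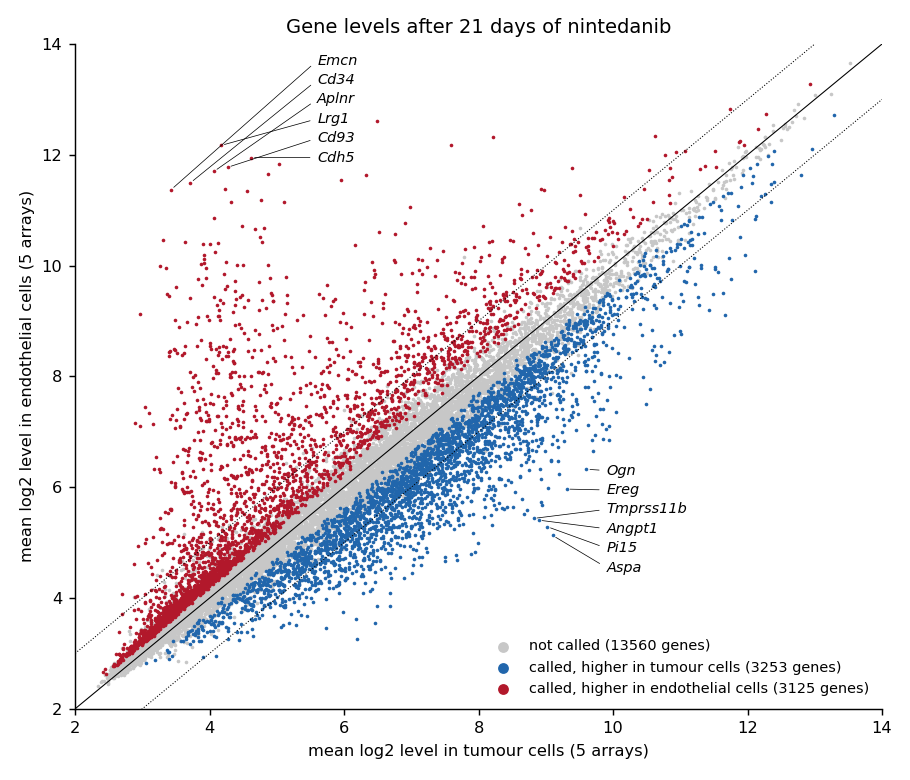
Mean log2 level of each of 19938 genes in endothelial cells (vertical axis) against tumour cells (horizontal axis), 5 arrays each. Red and blue genes are called higher and lower in endothelial cells, dotted lines mark a 2-fold difference, and the 6 largest differences in each direction are named.

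The 12 largest differences were those of genes higher in endothelial cells, among them several vascular ones. Lrg1, a secreted modulator of TGF-beta signalling in vessels, was at 12.40, 11.94, 11.86, 12.18 and 12.45 in endothelial cells and 4.58, 3.86, 4.64, 3.90 and 3.86 in tumour cells. That is a difference of 8.0 ± 0.16, or 256-fold (adjusted p = 2.53e-18). Emcn, the endothelial sialomucin endomucin, was at 11.57, 11.30, 11.38, 11.06 and 11.54 against 3.31, 3.43, 3.27, 3.64 and 3.49, a difference of 7.94 ± 0.15. For both genes the arrays of a cell type lay close together and the groups were far apart. Cd34, a sialomucin of vessels and progenitor cells, was at 11.62, 11.55, 11.60, 11.24 and 11.46 against 3.89, 3.69, 3.55, 3.86 and 3.57, a difference of 7.78 ± 0.13. The apelin receptor gene Aplnr differed by 7.64 ± 0.26, Cd93, an endothelial lectin-like receptor, by 7.51 ± 0.15, and Cdh5, the vascular endothelial cadherin of their junctions, by 7.33 ± 0.20. The adhesion receptors Adgrl4, Pecam1 and Mcam differed by 7.16 ± 0.13, 7.15 ± 0.15 and 6.80 ± 0.17, and Eng, a TGF-beta co-receptor, by 6.80 ± 0.18. Ramp2, which turns the calcitonin-like receptor into an adrenomedullin receptor, differed by 6.79 ± 0.21 and Pdlim1, a cytoskeletal adaptor, by 6.84 ± 0.19. Each of these 12 genes was above 10 in every endothelial array.

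The bases before the start site of some of these genes are shown because many endothelial genes carry binding sites of ETS factors, a family whose members Erg and Fli1 are themselves endothelial. Erg was called higher by 4.86 ± 0.19 and Fli1 by 4.91 ± 0.19. Capitals mark each AGGAAG, an ETS core, or its reverse complement CTTCCT in the 250 bases before the first listed start of the gene (RefSeq, GRCm38.p6, 5′ to 3′ on the gene's strand).
Lrg1: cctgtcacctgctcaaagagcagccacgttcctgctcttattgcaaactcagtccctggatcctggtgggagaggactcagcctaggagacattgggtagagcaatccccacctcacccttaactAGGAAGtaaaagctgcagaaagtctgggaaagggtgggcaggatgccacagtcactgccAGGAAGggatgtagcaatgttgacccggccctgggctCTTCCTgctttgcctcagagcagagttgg
Emcn: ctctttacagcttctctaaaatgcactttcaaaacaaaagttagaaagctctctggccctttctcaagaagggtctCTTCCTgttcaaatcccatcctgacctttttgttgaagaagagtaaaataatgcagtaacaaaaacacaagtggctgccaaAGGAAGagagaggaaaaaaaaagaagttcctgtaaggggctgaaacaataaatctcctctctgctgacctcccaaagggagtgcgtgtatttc
Adgrl4: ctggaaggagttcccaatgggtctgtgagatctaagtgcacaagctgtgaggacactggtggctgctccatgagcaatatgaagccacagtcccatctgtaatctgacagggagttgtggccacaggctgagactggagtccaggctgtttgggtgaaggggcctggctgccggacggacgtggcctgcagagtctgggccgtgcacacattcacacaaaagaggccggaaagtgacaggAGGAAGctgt
Eng: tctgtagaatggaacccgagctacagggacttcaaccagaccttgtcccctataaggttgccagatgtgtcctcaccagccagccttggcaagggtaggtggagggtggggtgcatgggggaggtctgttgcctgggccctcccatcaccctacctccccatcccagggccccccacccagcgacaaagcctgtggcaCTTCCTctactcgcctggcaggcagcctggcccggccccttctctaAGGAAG
These lie at chr17:56121947-56122196 (minus strand), chr3:137340828-137341077 (plus strand), chr3:151437632-151437881 (plus strand) and chr2:32646345-32646594 (plus strand). In Adgrl4 and Eng the match nearest the start begins 10 and 6 bases before it. Of the 28 endothelial markers 13 had a promoter in the table, and 7 of those (53.8%) held the motif on either strand. The share was 28.2% of 15614 promoters of all genes tested, 30.7% of 2421 promoters of genes called higher and 25.2% of 2540 promoters of genes called lower. It was 43.3% of 90 promoters among the genes higher by at least 16-fold. Of the 12 genes with the largest differences 7 had a promoter in the table and 5 of these held the motif, 4 of which are printed, while Pdlim1 and Mcam had 0 matches. A match is a string of letters and not evidence of binding.

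A second motif, CAGGTG or its reverse complement CACCTG, is the E-box that the EMT factors of the Snail and Zeb families bind. It was present in 10 of 17 promoters (58.8%) of the epithelial list, in 0 of 13 of the endothelial list and in 16.6% of promoters of all genes tested, 17.8% of those called higher and 13.8% of those called lower. Cldn3, Jup and Krt14 were among the 7 epithelial promoters without it, and Spint2, which was higher in endothelial cells, held 3 matches. Krt8 and Krt18, which were lower in endothelial cells, and Epcam, which was not called, are examples, with the motif in capitals.
Krt8: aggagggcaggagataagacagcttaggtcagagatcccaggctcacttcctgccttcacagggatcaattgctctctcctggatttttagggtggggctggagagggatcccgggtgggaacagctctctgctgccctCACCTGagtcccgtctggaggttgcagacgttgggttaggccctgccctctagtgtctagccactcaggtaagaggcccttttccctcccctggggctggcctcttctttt
Krt18: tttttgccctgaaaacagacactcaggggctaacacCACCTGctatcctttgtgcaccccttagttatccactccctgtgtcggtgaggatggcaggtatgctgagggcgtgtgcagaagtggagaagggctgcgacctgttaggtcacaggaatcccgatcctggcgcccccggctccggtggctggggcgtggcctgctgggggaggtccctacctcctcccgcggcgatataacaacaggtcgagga
Epcam: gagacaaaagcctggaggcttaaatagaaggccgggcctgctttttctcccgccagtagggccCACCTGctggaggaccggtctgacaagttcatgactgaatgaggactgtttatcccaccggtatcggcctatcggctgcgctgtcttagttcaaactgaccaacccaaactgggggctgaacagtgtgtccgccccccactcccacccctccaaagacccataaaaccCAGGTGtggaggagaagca
They lie at chr15:102004343-102004592 (minus strand), chr15:102027966-102028215 (plus strand) and chr17:87635729-87635978 (plus strand) of GRCm38.p6. Zeb1, one of these factors, was higher in endothelial cells by 0.62 ± 0.17, while Zeb2 differed by -1.55 ± 0.24. Snai1 and Snai2 were not called, with differences of 0.09 ± 0.33 and -0.07 ± 0.43.

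The lists of pathway genes were then compared with the share of all genes called. The share called higher, 15.7% over all genes, was largest for the endothelial (28 of 28), arterial and tip cell (17 of 20), Notch (11 of 16), angiopoietin (5 of 8), MHC (8 of 13), VEGF (6 of 10), pericyte (9 of 15) and leukocyte adhesion (6 of 10) lists. It also exceeded that of all genes in most other lists, but not in the FGF, ERBB, glycolysis, mitosis, immediate early, neutrophil and red cell lists. The epithelial (5 of 30), fibroblast (2 of 12) and ephrin (3 of 18) lists were close to the share of all genes. Without endothelial array 2 the higher calls were 3 on the epithelial list and 0 on the fibroblast and the T, B and NK cell lists. The share called lower, 16.3% over all genes, was largest for the mitosis (24 of 26), EMT (9 of 17), ERBB (7 of 17), glycolysis (7 of 18), fatty acid (9 of 25) and immediate early (7 of 20) lists.

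**Figure D3:**
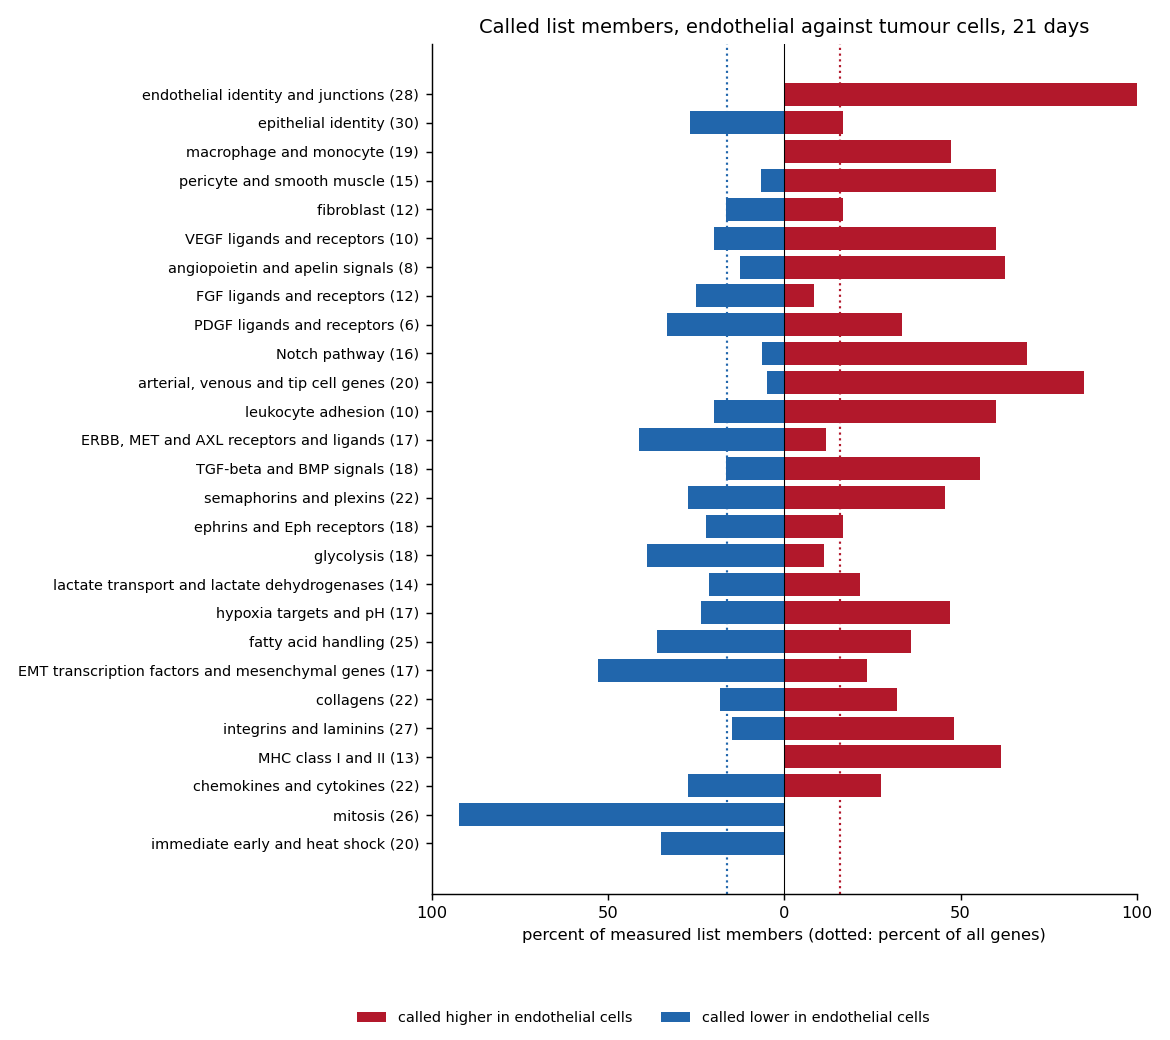
Percent of the measured members of each list (number in brackets) called higher (red, right) or lower (blue, left) in endothelial cells after 21 days; dotted lines show the percent of all genes called in that direction. All 28 endothelial markers are called higher, and 24 of 26 mitosis genes are called lower.

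For the VEGF system, the receptors were higher in endothelial cells, and the ligands Vegfa and Vegfd in tumour cells. Of 10 measured genes 6 were called higher and 2 lower. Kdr, the main signalling VEGF receptor, was at 10.10, 10.32, 9.98, 9.86 and 10.29 in endothelial cells and 3.96, 3.86, 3.69, 4.03 and 4.05 in tumour cells, a difference of 6.20 ± 0.15. Flt1, a high-affinity receptor that also acts as a ligand trap, was at 10.35, 10.45, 9.97, 10.23 and 10.97 against 4.11, 4.01, 3.98, 4.09 and 3.86, a difference of 6.39 ± 0.17. Both receptors were apart in every array. Flt4, the VEGF-C receptor, differed by 5.25 ± 0.20, and the co-receptors Nrp1 and Nrp2 by 1.86 ± 0.21 and 1.0 ± 0.19. Vegfa, the ligand of Kdr and Flt1, was at 6.80, 7.74, 8.53, 8.81 and 7.21 in endothelial cells and 9.57, 9.44, 9.67, 9.52 and 9.74 in tumour cells. All endothelial arrays lay below all tumour arrays for Vegfa, and the difference was -1.77 ± 0.42 (adjusted p = 0.00309). Vegfd, another ligand, differed by -2.35 ± 0.46. Endothelial arrays 3 and 4, with high tumour gene means, had the highest values of both ligands, and without these arrays the differences were -2.34 for Vegfa and -3.10 for Vegfd. Pgf, the placental growth factor that binds Flt1, went the other way, at 4.44, 6.34, 5.36, 7.50 and 4.39 in endothelial cells and 3.81, 4.06, 4.07, 3.94 and 3.95 in tumour cells. Its endothelial values ran over 3 units, from array 5 to array 4. Vegfc and Vegfb were not called, with differences of 0.26 ± 0.24 and -0.24 ± 0.27.

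Angiopoietins were split by ligand. Angpt1, the ligand that activates Tek and stabilises vessels, was at 4.09, 5.21, 7.22, 5.31 and 5.19 in endothelial cells and 9.11, 9.18, 8.80, 8.18 and 9.20 in tumour cells. The cell types did not overlap, although endothelial array 3 was 2 units above the other endothelial arrays, and the difference was -3.49 ± 0.45 (adjusted p = 5.88e-06). Angpt2, the context-dependent antagonist that sprouting endothelium releases, was at 8.10, 8.18, 6.96, 7.96 and 8.11 against 4.58, 5.15, 5.08, 4.79 and 4.96, higher by 2.95 ± 0.31. The receptors Tek and Tie1 were higher by 6.05 ± 0.20 and 5.17 ± 0.14. Apln, the apelin ligand of tip cells, was at 10.47, 10.26, 9.98, 9.82 and 10.05 in endothelial cells and 6.97, 6.89, 7.28, 7.22 and 7.16 in tumour cells, a difference of 3.01 ± 0.30. Ligand and receptor of the apelin pair were thus both higher in endothelial cells. Angpt4 and Apela had differences of 0.02 ± 0.09 and 0.08 ± 0.08 and were not called.

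**Figure D4:**
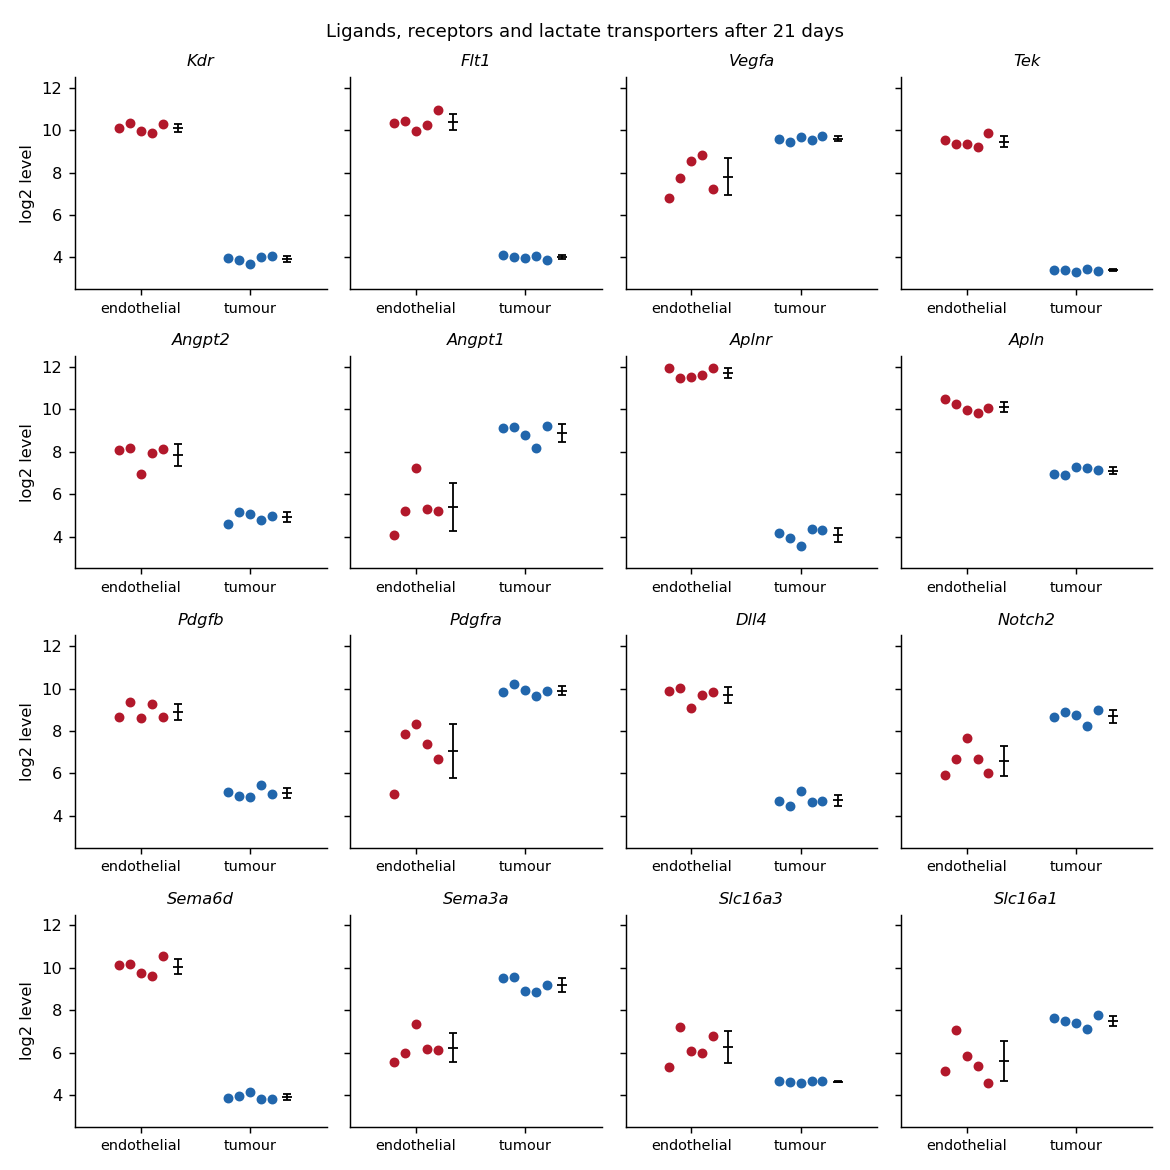
Log2 level (vertical axis) of 16 genes in each of the 5 endothelial (red) and 5 tumour (blue) arrays after 21 days; the black mark beside each group is its mean with the SD. Kdr, Flt1, Tek, Aplnr, Dll4 and Sema6d are apart by about 5 units or more, while Vegfa, Angpt1, Pdgfra and Sema3a are lower and more spread in endothelial cells.

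PDGF signalling was split as well. Pdgfb, the ligand with which endothelium recruits pericytes, was at 8.65, 9.37, 8.61, 9.28 and 8.66 in endothelial cells and 5.13, 4.94, 4.87, 5.43 and 5.01 in tumour cells, higher by 3.84 ± 0.21. Pdgfd was higher by 1.98 ± 0.37. The receptors were higher in tumour cells. Pdgfra was at 5.03, 7.86, 8.34, 7.38 and 6.66 in endothelial cells and 9.82, 10.22, 9.93, 9.63 and 9.88 in tumour cells, a difference of -2.84 ± 0.44 (adjusted p = 4.9e-05). Array 1, lowest for the tumour genes, was also lowest for Pdgfra. Pdgfrb was at 5.98, 6.18, 7.29, 6.33 and 5.97 against 8.40, 8.11, 7.99, 7.26 and 8.54, a difference of -1.71 ± 0.27 with endothelial array 3 level with tumour array 4. Pdgfc was at 4.25, 3.88, 4.40, 4.13 and 9.03 in endothelial cells, where array 5 alone was high, and at 6.90, 6.77, 6.19, 4.89 and 7.18 in tumour cells, and it was not called. Without endothelial array 5 the Pdgfc difference was -2.22 (adjusted p = 5.7e-05). Among 12 FGF genes 1 was called higher and 3 lower. Fgf7, an epithelial growth factor of mesenchymal cells, was at 3.47, 3.51, 3.62, 4.60 and 4.06 in endothelial cells and 7.19, 7.25, 6.74, 6.55 and 5.68 in tumour cells, a difference of -2.83 ± 0.41. Fgf2 differed by -1.60 ± 0.23 and its receptor Fgfr1 by -0.61 ± 0.13. Fgfr3 was higher in endothelial cells by 0.40 ± 0.12, but was not called without endothelial array 1 (0.30) or 2 (0.35), with median centring (0.32) or with renewed quantile normalization (0.36).

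Notch genes were mostly endothelial, with 11 of 16 called higher and 1 lower and a median difference of 1.78. Dll4, the Notch ligand of tip and arterial cells, was at 9.89, 10.04, 9.08, 9.70 and 9.83 in endothelial cells and 4.68, 4.47, 5.16, 4.66 and 4.67 in tumour cells, higher by 4.98 ± 0.19. Jag1, a ligand that competes with Dll4 in sprouting, was at 7.64, 7.60, 7.19, 7.22 and 7.93 against 6.06, 5.88, 5.85, 5.41 and 5.95, higher by 1.69 ± 0.24. Jag2 and Dll1 were higher by 2.91 ± 0.18 and 2.82 ± 0.35. Among the receptors Notch4, an endothelial one, was higher by 3.85 ± 0.24 and Notch1 by 1.88 ± 0.19. Notch2 was the exception, at 5.92, 6.69, 7.66, 6.68 and 6.01 in endothelial cells and 8.64, 8.89, 8.74, 8.22 and 8.98 in tumour cells, a difference of -2.10 ± 0.32 (adjusted p = 4.38e-05). Mfng, a glycosyltransferase that tunes which ligands Notch answers to, was higher by 4.55 ± 0.18. The Notch target genes Hey1 and Nrarp were higher by 2.80 ± 0.30 and 3.26 ± 0.18, while Hes1 was not called (0.18 ± 0.18).

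Of 20 arterial, venous and tip cell genes 17 were called higher and 1 lower. Nid2, a basement membrane protein, and Kcne3, a potassium channel subunit, were higher by 6.28 ± 0.19 and 6.11 ± 0.22, Gja4, an arterial connexin, by 4.31 ± 0.23 and Cxcr4, a chemokine receptor of tip cells, by 4.52 ± 0.37. Esm1, a tip cell proteoglycan, was at 5.60, 4.16, 4.13, 4.62 and 6.52 in endothelial cells and 3.39, 3.28, 3.06, 3.53 and 3.24 in tumour cells, higher by 1.71 ± 0.39. Endothelial arrays 1 and 5 were high for Esm1, and arrays 2, 3 and 4 lay nearer to the tumour cells. Nr2f2, a transcription factor that sets venous identity, was at 8.72, 9.17, 9.26, 9.09 and 9.32 against 9.66, 9.83, 9.82, 9.71 and 9.97, a difference of -0.68 ± 0.19. Efnb2, the arterial ephrin, was not called (-0.20 ± 0.20), and its venous receptor Ephb4 was higher in endothelial cells by 1.41 ± 0.15.

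Semaphorin and plexin genes were called in both directions, 10 of 22 higher and 6 lower, beside 15.7% and 16.3% of all genes. Sema6d was at 10.14, 10.18, 9.75, 9.63 and 10.56 in endothelial cells and 3.84, 3.97, 4.14, 3.82 and 3.83 in tumour cells, higher by 6.14 ± 0.20. Plxnd1, the plexin of vessels that binds Sema3e, was at 11.43, 11.82, 11.24, 11.42 and 11.84 against 6.06, 5.92, 5.99, 5.39 and 6.40, higher by 5.60 ± 0.25. The secreted Sema3a, Sema3c and Sema3d, ligands of neuropilins and plexins, were lower in endothelial cells. Sema3a was at 5.53, 5.98, 7.37, 6.16 and 6.12 against 9.49, 9.56, 8.91, 8.85 and 9.17, a difference of -2.96 ± 0.29. Sema3c differed by -2.38 ± 0.19 and Sema3d by -2.56 ± 0.35, whereas Sema3f, of the same class, was higher by 2.39 ± 0.23. Among 18 ephrin and Eph genes, 3 were called higher and 4 lower, near the shares of all genes, with a median of -0.01. Ephb1 was higher by 2.80 ± 0.24, and Efna5 and Ephb3 differed by -2.12 ± 0.35 and -1.85 ± 0.24.

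TGF-beta and BMP signals were called higher for 10 of 18 genes and lower for 3, beside 15.7% and 16.3% of all genes. The ligands showed opposite sides, with Tgfb1 at 10.17, 10.28, 10.04, 9.76 and 10.22 in endothelial cells and 7.58, 7.48, 7.46, 6.93 and 7.45 in tumour cells, higher by 2.71 ± 0.32. Tgfb3 was at 4.19, 5.76, 6.85, 6.15 and 5.15 against 8.69, 7.98, 8.30, 7.92 and 8.83, a difference of -2.73 ± 0.48. Inhba, the activin subunit, was lower in endothelial cells as well (-2.98 ± 0.44). Acvrl1, the endothelial type I receptor for BMP ligands, was higher by 2.88 ± 0.23, the ligand Bmp2 by 2.68 ± 0.42, and Id1, a target of this branch, by 2.66 ± 0.24. For the ERBB, MET and AXL receptors and their ligands the balance was reversed, with 2 of 17 genes called higher and 7 lower. Ereg, an EGF receptor ligand, was at 4.59, 6.68, 7.22, 7.42 and 3.91 in endothelial cells and 9.51, 9.30, 9.17, 9.19 and 9.36 in tumour cells, a difference of -3.34 ± 0.55. Its endothelial values spanned more than 3 units and were lowest in arrays 1 and 5. Egfr differed by -1.43 ± 0.16, Met, the receptor of hepatocyte growth factor, by -2.04 ± 0.30, and Axl, the receptor of Gas6, by -2.01 ± 0.35. Gas6 itself was higher in endothelial cells by 1.05 ± 0.29, but was not called without endothelial arrays 3 and 4 (0.79).

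The genes most strongly lower in endothelial cells were a mixed group. Aspa, which cleaves acetyl-aspartate, was at 4.94, 3.48, 6.30, 6.39 and 4.55 in endothelial cells and 8.82, 8.81, 8.81, 9.70 and 9.36 in tumour cells, a difference of -3.97 ± 0.48, or 15.7-fold (adjusted p = 2.61e-06). Pi15, a secreted CAP-family protein, was at 4.60, 5.02, 7.48, 4.71 and 4.62 against 9.32, 9.72, 9.11, 7.64 and 9.31, a difference of -3.73 ± 0.60. Pi15 stood high in endothelial array 3 and low in tumour array 4. The membrane proteases Tmprss11b and Tmprss11e differed by -3.38 ± 0.43 and -3.19 ± 0.34. Ogn, the matrix proteoglycan osteoglycin, was at 4.16, 5.53, 8.27, 7.23 and 6.43 in endothelial cells and 9.62, 9.05, 9.84, 9.81 and 9.70 in tumour cells, a difference of -3.28 ± 0.49. Mgst2, a glutathione transferase, differed by -3.28 ± 0.53, the kinase Prkg2 by -3.15 ± 0.59, the metalloreductase Steap2 by -3.12 ± 0.35, the splicing factor Nova1 by -3.11 ± 0.43 and the tight junction claudin Cldn1 by -3.10 ± 0.45. For Prkg2 the endothelial values were 3.41, 4.01, 7.09, 6.71 and 6.36. Endothelial arrays 1 and 2 were low for Prkg2 and arrays 3, 4 and 5 were not.

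Mesenchymal genes leaned to the tumour arrays, and whether tumour cells or fibroblasts among them carried these transcripts was not tested. Of 17 EMT factors and mesenchymal genes 9 were called lower in endothelial cells and 4 higher, with a median of -0.90. Twist1, an EMT factor, was at 4.31, 5.67, 6.40, 6.33 and 4.78 in endothelial cells and 7.41, 7.76, 7.78, 8.26 and 7.53 in tumour cells, a difference of -2.25 ± 0.32. Prrx1, another mesenchymal factor, differed by -2.21 ± 0.32. Sparc, a matrix protein of vessels and mesenchyme, was on the other side at 12.89, 12.79, 12.77, 12.79 and 12.89 against 11.76, 11.79, 11.69, 11.61 and 11.88, higher by 1.08 ± 0.07. The fibroblast markers Pdgfra and Dcn, the proteoglycan decorin, were lower in endothelial cells, Dcn with a difference of -0.85 ± 0.27 and tumour values from 12.86 to 13.08. Dcn was not called without endothelial array 1 (-0.60) or 5 (-0.77). Of the other 10 genes of that list 2 were called, both higher, and 0 without endothelial array 2 or 3 or without tumour array 1, 2, 3 or 5.

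Matrix genes were called higher more often than lower. Nid1, which links laminin and collagen IV, was at 10.14, 10.72, 9.92, 9.85 and 10.59 in endothelial cells and 4.16, 4.19, 4.18, 4.14 and 3.77 in tumour cells, higher by 6.16 ± 0.20. Col4a1 was higher by 4.08 ± 0.22, Col15a1 by 4.65 ± 0.20, Lama4, an endothelial laminin chain, by 4.21 ± 0.19 and Lamc1 by 2.23 ± 0.16. The 4 collagens called lower were Col8a1 (-1.60 ± 0.28), Col6a1 (-1.52 ± 0.24), Col6a2 (-1.09 ± 0.32) and Col4a5 (-1.31 ± 0.20), a chain of the same basement membrane collagen as Col4a1. In all, 7 of 22 collagens were called higher and 4 lower, and 13 of 27 integrins, laminins and nidogens higher and 4 lower. Over all genes 15.7% were called higher and 16.3% lower, and the lower calls of both lists were near that share. Integrin subunits were split, with Itga9 higher by 3.70 ± 0.27 and Itgb3 by 3.49 ± 0.36. Itgb3 was at 8.35, 8.31, 6.51, 8.51 and 8.36 in endothelial cells, with array 3 lowest. Itgb8, a subunit that activates TGF-beta, was at 4.92, 7.47, 7.50, 7.0 and 6.38 against 9.62, 9.64, 9.64, 9.46 and 10.16, a difference of -3.05 ± 0.44. Itgav, its partner subunit, differed by -1.23 ± 0.22.

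Of 18 glycolysis genes 2 were called higher and 7 lower in endothelial cells, with a median of -0.20. Pfkfb3, which makes the activator of phosphofructokinase and drives glycolysis in sprouting endothelium, was at 5.91, 7.28, 7.05, 6.87 and 7.0 in endothelial cells and 4.23, 4.24, 3.83, 3.96 and 3.92 in tumour cells, higher by 2.79 ± 0.26. Endothelial array 1 was lowest for Pfkfb3, and still above all tumour arrays. Pfkp, a phosphofructokinase, was higher by 0.96 ± 0.24. The glucose transporter gene Slc2a1 was not called (0.67 ± 0.29, adjusted p = 0.0806). It was called with array weights (0.65, adjusted p = 0.0378) and with the 10 arrays fitted alone (0.67, adjusted p = 0.0151). Eno2, an enolase, differed by -1.70 ± 0.20, Tpi1, triose phosphate isomerase, by -1.06 ± 0.26 and Hk2, hexokinase 2, by -0.69 ± 0.16.

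The lactate transporter genes Slc16a3 and Slc16a1 were on opposite sides. Slc16a3, the exporter MCT4, was at 5.30, 7.19, 6.06, 5.99 and 6.80 in endothelial cells and 4.66, 4.62, 4.56, 4.66 and 4.65 in tumour cells, higher by 1.64 ± 0.33 (adjusted p = 0.000828). Slc16a1, the transporter MCT1, was at 5.15, 7.08, 5.83, 5.36 and 4.57 against 7.61, 7.47, 7.38, 7.13 and 7.76, a difference of -1.87 ± 0.31 (adjusted p = 0.000118). The cell types did not overlap for either gene, and endothelial array 2 was highest for both. Ldha was not called (-0.25 ± 0.13) and Ldhb, which favours pyruvate formation, was lower in endothelial cells at -0.92 ± 0.21.

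The hypoxia factor genes Epas1 and Hif1a were higher in endothelial cells than in tumour cells. Epas1, which encodes HIF-2 alpha, was at 10.62, 11.10, 10.51, 10.44 and 11.19 against 7.52, 6.58, 7.30, 6.08 and 7.01, higher by 3.87 ± 0.28. Hif1a was at 9.44, 9.0, 9.06, 8.93 and 9.69 against 7.36, 7.77, 7.32, 7.35 and 7.16, higher by 1.83 ± 0.19. Of the 17 genes of the hypoxia list, which holds both factors, 8 were called higher and 4 lower. Bnip3, a mitophagy receptor, was lower in endothelial cells at -1.23 ± 0.23, and the carbonic anhydrase gene Car9, low in both cell types, was not called (-0.18 ± 0.22).

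Of 25 fatty acid handling genes 9 were called higher and 9 lower. Gpihbp1, the capillary anchor of lipoprotein lipase, was at 10.99, 11.31, 11.32, 11.83 and 11.25 in endothelial cells and 5.08, 4.20, 4.27, 4.54 and 4.69 in tumour cells, higher by 6.78 ± 0.18. Cd36, a fatty acid translocase, was at 10.11, 7.82, 8.99, 9.06 and 9.65 against 3.01, 2.97, 2.95, 2.93 and 2.93, higher by 6.17 ± 0.38, and Fabp4, a fatty acid binding protein, was higher by 5.82 ± 0.21. Endothelial array 2 was lowest for both. Scd1, a desaturase, was at 6.67, 8.37, 9.44, 8.31 and 8.48 against 10.69, 10.76, 10.82, 10.16 and 11.38, a difference of -2.51 ± 0.43. Acaca, the first enzyme of fatty acid synthesis, differed by -1.50 ± 0.11 and Acadm, of fatty acid oxidation, by -1.42 ± 0.22.

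Of 10 leukocyte adhesion genes 6 were called higher and 2 lower. Icam1, a leukocyte integrin ligand, was at 8.13, 5.95, 6.56, 7.10 and 6.82 in endothelial cells and 4.55, 4.57, 4.48, 4.54 and 4.64 in tumour cells, higher by 2.36 ± 0.32. Icam2 was higher by 4.54 ± 0.19, Sele, the E-selectin, by 1.80 ± 0.22 and the junctional adhesion molecule Jam2 by 2.86 ± 0.27. Vcam1 was on the other side, at 5.02, 5.0, 5.21, 5.28 and 5.03 against 5.74, 5.57, 5.44, 5.68 and 5.18, a small difference of -0.41 ± 0.13 with overlapping arrays. For MHC genes 8 of 13 were called higher and 0 lower, with a median of 0.94 (at an unadjusted p under 0.05, 8 higher and 0 lower). Without endothelial arrays 3 and 4, highest in macrophage markers, 7 of 13 were called higher. Psmb9, an immunoproteasome subunit, was higher by 3.03 ± 0.30, Psmb8 by 1.97 ± 0.24, the peptide transporter Tap1 by 1.83 ± 0.21 and B2m, the light chain of class I, by 0.91 ± 0.09. Cd74, the class II invariant chain, was at 7.51, 5.43, 8.33, 7.05 and 8.13 in endothelial cells and 5.21, 4.58, 4.60, 4.11 and 5.40 in tumour cells, with array 2 lowest.

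Cytokines followed no single direction, with 6 of 22 called higher and 6 lower. Cxcl9, a T cell chemokine, was at 8.78, 5.51, 6.84, 6.43 and 8.25 in endothelial cells and 4.39, 4.04, 4.26, 4.15 and 4.05 in tumour cells, higher by 2.99 ± 0.44. Il6 was higher by 2.17 ± 0.43. Csf1, the growth factor of macrophages, was at 6.43, 8.65, 9.26, 8.42 and 7.24 against 9.77, 10.01, 10.38, 10.06 and 10.26, a difference of -2.10 ± 0.42. Il18, Il33 and Lif differed by -2.19 ± 0.34, -2.15 ± 0.33 and -2.06 ± 0.32.

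Mitotic genes were higher in tumour cells. Of 26 listed genes 24 were called lower in endothelial cells and 0 higher (25 and 0 at an unadjusted p under 0.05), and the median difference was -1.21. Mki67, a protein of proliferating cells, was at 5.70, 5.89, 6.82, 6.91 and 6.83 in endothelial cells and 7.75, 8.08, 8.39, 8.33 and 7.22 in tumour cells, a difference of -1.53 ± 0.31 (adjusted p = 0.000706). Ect2, a cytokinesis factor, differed by -2.08 ± 0.30, Bub1, a spindle checkpoint kinase, by -1.65 ± 0.23 and Cenpe, a kinetochore motor, by -1.75 ± 0.24. List means were 5.24, 5.46, 6.04, 6.14 and 5.70 in endothelial and 6.64, 7.16, 7.28, 7.34 and 6.34 in tumour arrays. Endothelial arrays 3 and 4 and tumour array 5 stood nearest each other. The 20 immediate early and heat shock genes, which rise when tissue is dissociated, held 7 called lower and 0 called higher, and 9 and 1 at an unadjusted p under 0.05, with list means from 8.85 to 9.44 in endothelial and 9.25 to 9.76 in tumour arrays. The lower calls numbered 3 without endothelial array 1 or tumour array 1 or 5, and 4 without endothelial array 5.

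The cell type difference at 21 days was set against that of untreated tumours and of tumours after 7 days. These share no arrays with it, but the fit used 1 spread per gene for all of them, so the calls are not independent. In untreated tumours 3656 genes (18.3%) were called between the cell types and at 7 days 7972 (40%). Of the 6378 genes called at 21 days 2999 were called in the same direction in untreated tumours, which is 47% of the 21-day calls and 82% of the untreated calls. With 7 days 4491 were shared, 70.4% and 56.3% of the calls. Opposite calls were found for 4 and 8 genes. The difference between the cell types itself changed for 0 genes (0%) against untreated tumours by limma's adjusted p, with 1063 genes at an unadjusted p under 0.05. Against 7 days it changed for 7 genes (0.0351%), with 1959 at an unadjusted p under 0.05. By chance alone about 1 in 20 of the 19938 genes would have an unadjusted p under 0.05. The 7 became 13 without endothelial array 2 or 5 and 12 without tumour array 2 or 5, and the 0 became 1 without tumour array 5.

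The largest of the 7 changes was that of Galnt3. Galnt3, an enzyme that starts mucin-type glycosylation, had a cell type difference of -2.52 ± 0.16 at 7 days and of -0.27 ± 0.13 at 21 days, and the difference between these values was 2.25 ± 0.21 (adjusted p = 1.85e-05). Its 21-day levels were 4.16, 4.24, 4.15, 4.37 and 4.11 in endothelial cells and 4.67, 4.48, 4.07, 4.18 and 4.97 in tumour cells, and overlapped. The 21-day difference of Galnt3 was called without tumour array 3 (-0.37), with median centring (-0.35) and with renewed quantile normalization (-0.38). Fermt1, an integrin activator of epithelial cells, went from -1.78 ± 0.19 to 0.19 ± 0.16 and the channel gene Tmem63b from -1.59 ± 0.16 to -0.22 ± 0.13. Nes, the intermediate filament gene nestin, was higher in endothelial cells by 3.0 ± 0.21 at 7 days and by 4.83 ± 0.18 at 21 days (adjusted p of the change = 0.00707). Rgl1, a regulator of small GTPases, went from 3.48 ± 0.19 to 1.30 ± 0.16, Ptgfr, a prostaglandin receptor, from 0.11 ± 0.17 to -1.51 ± 0.14, and Esyt3, a lipid transfer protein, from -1.94 ± 0.16 to -0.61 ± 0.13. In untreated tumours the differences were -0.51 ± 0.17 for Galnt3, -0.19 ± 0.21 for Fermt1, -0.26 ± 0.17 for Tmem63b and 4.72 ± 0.23 for Nes. They were 2.30 ± 0.21 for Rgl1, -0.39 ± 0.18 for Ptgfr and -0.71 ± 0.17 for Esyt3. For all of the 7 genes but Ptgfr the untreated value was nearer to the 21-day value than to the 7-day value.

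Against untreated tumours, with small RNAs left out (Snora52 had the smallest p of all genes), the smallest p-values were those of Mmp12, Klhl23, Tcf3, Arhgap11a and Ptgfr, all with an adjusted p of 0.207. The cell type difference of Arhgap11a was -0.39 ± 0.19 in untreated tumours, -1.28 ± 0.18 at 7 days and -1.58 ± 0.15 at 21 days. For Mki67 it was -0.48 ± 0.39, -1.01 ± 0.37 and -1.53 ± 0.31, and for the whole mitosis list the median was -0.35, -0.91 and -1.21, with 1, 16 and 24 of 26 genes called lower. Median differences over all genes were 0.03, 0.11 and 0.06, and 2026, 3381 and 3253 of the 19938 genes were called lower. These counts rest on unequal numbers of arrays, 3 endothelial and 3 tumour, 3 and 4, and 5 and 5. None of the listed mitosis genes passed the test of a change of the difference against untreated tumours or 7 days. The VEGF receptor Kdr differed by 6.31 ± 0.20, 6.37 ± 0.18 and 6.20 ± 0.15 in the untreated, 7-day and 21-day groups and Vegfa by -2.76 ± 0.54, -3.20 ± 0.51 and -1.77 ± 0.42. For Angpt2 the values were 1.92 ± 0.41, 2.14 ± 0.38 and 2.95 ± 0.31, for Esm1 3.19 ± 0.50, 1.0 ± 0.47 and 1.71 ± 0.39, and for Hey1 3.95 ± 0.39, 2.07 ± 0.36 and 2.80 ± 0.30. None of these 5 passed the test of a change between durations.

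**Figure D5:**
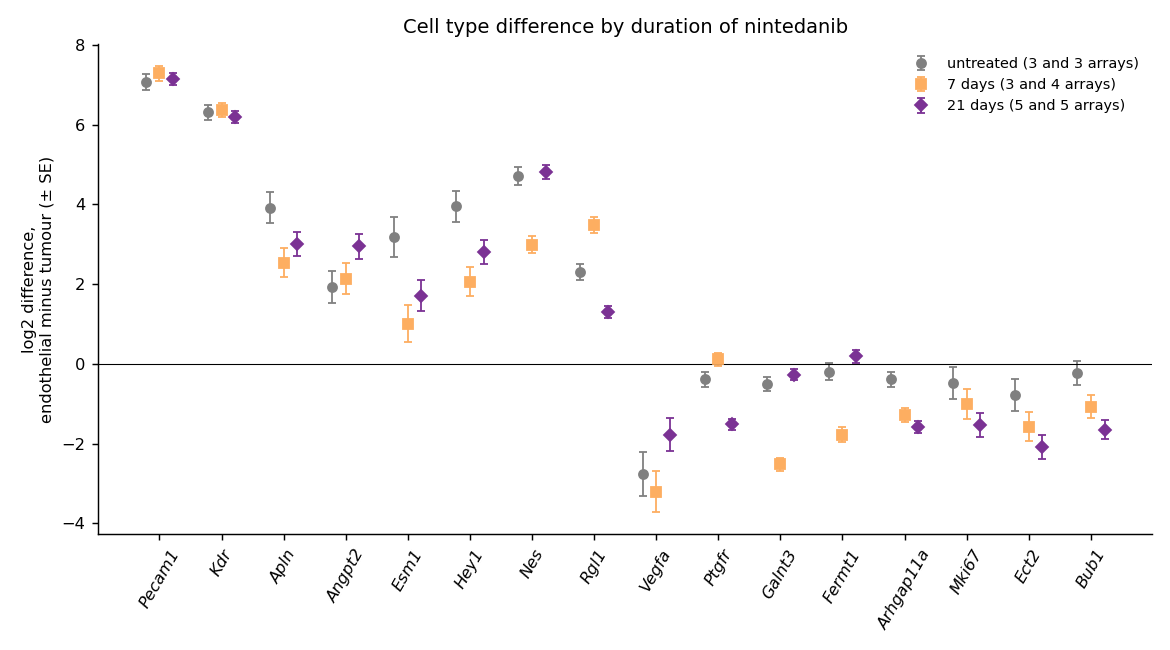
Log2 difference between endothelial and tumour cells with its SE (vertical axis) for 16 genes in untreated tumours (grey), after 7 days (orange) and after 21 days (purple). Pecam1 and Kdr have nearly the same value each time, Galnt3 and Fermt1 are low at 7 days alone, and Arhgap11a is lowest at 21 days.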

How the data were processed

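The deposited table holds log2 signals per transcript cluster of 23 Affymetrix arrays, which the authors made with RMA and the oligo package per the submitters' processing notes, with versions not given in the sources used here. Because RMA gives all arrays 1 common distribution after background correction, differences are relative to the other transcripts of an array. Precision is limited by 5 arrays in each group. Of 35556 clusters 21789 named 1 gene in the platform annotation, 1621 several and 12146 were not listed there or had no gene name. Symbols were updated through RefSeq's mouse genes (assembly GRCm38.p6), where 21698 were found. For the 999 genes with more than 1 cluster, the brightest on average across the 23 arrays was used, giving 19938 genes with no filter on dim values.

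limma 3.58.1 in R 4.3.3 was fitted to all 23 arrays with 6 group means, 1 for each cell type and duration, with two-sided tests, and the fit was tested on simulated data. The change of the cell type difference between durations was tested as an interaction in the same fit. Gene lists, 32 in all with 503 of 528 symbols measured, were described by counts of called genes and medians. The members and lists were chosen with earlier results of these data known. Named genes were the 12 largest differences in each direction without predicted genes, small RNAs and receptor families, the 4 smallest p-values per direction of a list, a panel, members of ligand and receptor lists, and the 5 smallest p-values of each interaction. Acta2, Cd74, Csf1, Cxcr4, Erg, Esyt3, Fli1, Gja4, Icam1, Itga9, Itgb3, Krt14, Perp, Scd1, Snai1, Snai2, Snora52, Tmem63b and Tpi1 were named after their values were seen. Same-numbered arrays of the 2 cell types were compared by the correlation of their deviations from the group means. Promoters were the 250 bases before the first listed start of a gene in RefSeq.

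Alternatives were a variance trend, array weights, leaving out genes under the 30th or under the 50th percentile of average level, the mean of a gene's clusters, median centring, renewed quantile normalization, a replicate block, the 10 arrays alone, a threshold of 0.01, a promoter window of 150 bases and leaving out each array. Leaving out endothelial arrays 3 and 4 together was added after seeing the data.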

Additional observations from a re-analysis of the deposited data

Results flagged for a closer look

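In groups of 5 arrays, an array was singled out where its gap to the nearest other array, as a share of the range of the group, exceeded Dixon's critical value for 5 arrays. Of 428 groups tested, over the genes and lists described, 32 met this, and chance alone would be expected to give about 1 in 20, or 21.4.

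Among endothelial arrays, array 1 was low for Acadm (6.41), Cenpe (4.45) and Efnb2 (9.02), and array 2 for Rgs5 (4.96). Array 3 was high for Pdgfrb (7.29), Pi15 (7.48) and Sema3d (4.47), 3 genes that were higher in the tumour cells, and low for Angpt2 (6.96), Ephb4 (8.66) and Itgb3 (6.51), which were higher in endothelial cells. Array 4 was high for Cldn4 (6.37) and Sema3e (3.38) and low for Ptgfr (3.73). Array 5 was high for Lama4 (10.75) and Pdgfc (9.03). The Pdgfc value was 9.03 where the other 4 endothelial arrays lay between 3.88 and 4.40.

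In tumour arrays, array 1 was high for Epcam (5.26) and low for Met (9.06), and array 2 was low for Ogn (9.05). Array 4 was low for Ephb4 (7.46), Esyt3 (5.93), Fgfr1 (8.91) and Tgfb1 (6.93), high for Sele (4.56), and low for the means of the semaphorin and plexin list (5.66) and of the ephrin and Eph list (5.70). Array 5 was high for Acta2 (4.89), Csf1r (4.69), Dll1 (4.54), Itgb8 (10.16) and Tmem63b (8.13), and low for Arhgap11a (5.59) and Nid1 (3.77).

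The cell type difference itself changed between 7 and 21 days for 7 genes by limma's interaction test. The change was 2.25 for Galnt3, -2.18 for Rgl1, 1.96 for Fermt1, -1.63 for Ptgfr, 1.83 for Nes, 1.36 for Tmem63b and 1.32 for Esyt3.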

How the results depend on the processing

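The direction of the cell type difference held for the 159 named genes that were called, under each alternative that kept the gene, and 168 of 180 named genes had the same call under those alternatives other than the threshold of 0.01. The percentile filters removed some of the dimmer named genes, which were then not tested. The total of 6378 genes stayed within 1.5 times under all alternatives but that threshold, which left 3860 (1722 higher and 2138 lower). Genes called higher fell to 1631 above the 50th percentile of mean level and to 1922 with median centring. Leaving out 1 array gave 5216 to 6688 calls, 0 to 1 genes for the change against untreated tumours and 7 to 13 for the change against 7 days. The change against untreated tumours was called for 2 genes with array weights. Against 7 days it was called for 12 genes with a variance trend, 4 above the 50th percentile, 12 with renewed quantile normalization and 13 without endothelial arrays 3 and 4. With a replicate block the calls were 5460 at 21 days and 3 for the change against 7 days, and among named genes Vcam1 (adjusted p = 0.0579) and Tcf3 (adjusted p = 0.0622) were not called. Same-numbered arrays correlated between -0.110 and 0.064 in their deviations, and 2 of 5 endothelial arrays correlated best with their own number, so the numbers were not taken to pair the samples. The cause of these shifts was not tested beyond their construction.

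Of 575 recomputed list medians 46 moved by more than the spread between arrays. Above the 30th percentile, where fewer genes are tested, they were 0.74 for pericyte, -0.19 for FGF, 1.71 for arterial and tip cell, 0.28 for semaphorin, -0.20 for ephrin, -0.38 for glycolysis, -0.24 for lactate, 0.40 for hypoxia and 1.06 for integrin genes. Above the 50th percentile they were -0.41 for epithelial, -0.73 for T, B and NK cell, 2.04 for pericyte, 0.87 for adipocyte, 5.25 for lymphatic, 1.00 for VEGF, 4.09 for angiopoietin, -0.40 for FGF, -1.25 for PDGF, 2.08 for leukocyte adhesion, -0.99 for ERBB, 0.85 for semaphorin and -0.15 for ephrin genes. Under the same filter they were -0.44 for glycolysis, -0.25 for lactate, 0.40 for hypoxia, -0.16 for fatty acid, 1.19 for integrin, 1.39 for MHC and -1.11 for chemokine genes. Array weights gave 2.90 for angiopoietin genes. Median centring gave 0.0884 for T, B and NK cell and 2.90 for angiopoietin genes. Renewed quantile normalization gave 0.0684 for T, B and NK cell, 0.41 for pericyte, -0.0267 for adipocyte and 0.12 for lymphatic genes. Without endothelial arrays 3 and 4 the medians were 0.37 for macrophage, 3.19 for angiopoietin, 1.99 for Notch and 1.94 for arterial and tip cell genes. Leaving out 1 array in turn, the medians ran from 2.91 to 3.11 for angiopoietin, -0.34 to -0.11 for glycolysis, 1.46 to 1.74 for arterial and tip cell and 1.23 to 1.54 for leukocyte adhesion genes. With a window of 150 bases, AGGAAG was present in 20.5% of promoters of genes called higher and 15.2% of genes called lower.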
